A study of Mus musculus with 12 samples.

Results

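The genes described here were the ligands, the receptor and the binding proteins of the insulin-like growth factor (IGF) system, read from the gene counts of mouse kidneys with and without polycystic disease. They were taken by symbol, as the rows named *Igf1*, *Igf2*, *Igf1r* and *Igfbp1* to *Igfbp7*. The set was chosen with earlier results of these data known. All 10 members were found among the 54532 genes of the count table, and all 10 were among the 24642 genes that passed the cutoff on low counts and were tested. RNA was sequenced from the right kidney of 12 mice aged 18 days, labelled C57BL/6 and kept on the C57BL/6 J substrain, in 4 groups of 3 mice each. Mice 19 to 24 were noncystic and mice 25 to 30 cystic, with the wild type *Pkd2* genotype in mice 19 to 21 and 25 to 27. Within each group, values are listed by mouse number. Every mouse carried 1 *Pkd1* RC allele, a hypomorphic missense allele of the polycystic kidney disease gene *Pkd1*. In the cystic groups (*Pkd1* RC/-) the other *Pkd1* allele was floxed and removed by Ksp-Cre. This recombinase is driven by the kidney-specific cadherin promoter and so is active in tubule epithelium. The paper gives the noncystic groups as *Pkd1* RC/F (F for floxed) without Ksp-Cre, also written RC/+. Their floxed allele stayed intact as a functional second allele. Comparisons of cystic with noncystic kidneys therefore also compare mice with and without Cre. Within each disease state, 1 group was *Pkd2* +/+ and the other was *Pkd2* Δ17/Δ17, in which the binding motif for the microRNA miR-17 had been deleted from the 3′-UTR of both copies of *Pkd2* by CRISPR editing in the germ line. Whole kidneys were homogenized, so fewer cells of a type and less RNA per cell cannot be told apart in any result below.

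IGF1 and IGF2 are secreted growth factors that act through the receptor tyrosine kinase encoded by *Igf1r*, which signals through IRS adaptors, PI3 kinase and AKT. In the extracellular space most of the ligand is held by IGF-binding proteins, which prolong its life and limit or direct its access to the receptor, and which proteases such as pappalysins cleave to release it. In the kidney the system is known for its part in postnatal growth, in glomerular filtration and in the compensatory enlargement that follows loss of nephrons. IGFBP7 binds IGFs only weakly and is usually described as a matrix protein of vessels that is also released by stressed tubules.

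Pairs of binding-protein genes lie side by side in the mouse genome (build GRCm38). *Igfbp2* (chromosome 1, 72824503 to 72852474, plus strand) and *Igfbp5* (chromosome 1, 72857932 to 72874884, minus strand) face each other tail to tail across 5.46 kb. *Igfbp1* (chromosome 11, 7197782 to 7202546, plus strand) and *Igfbp3* (chromosome 11, 7206086 to 7213923, minus strand) are separated in the same arrangement by 3.54 kb. *Igfbp4* lies elsewhere on chromosome 11 (99041244 to 99054392), *Igfbp6* on chromosome 15 (102144362 to 102149511) and *Igfbp7* on chromosome 5 (77349240 to 77408041, minus strand). *Igf1* is on chromosome 10 (87858265 to 87937042) and *Igf1r* on chromosome 7 (67952827 to 68233668), as is *Igf2* (142650766 to 142666816, minus strand).

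Because the edited motif is a miR-17 site, the members' own 3′-UTRs were searched for the same letters. The mature microRNA is shown with its seed, bases 2 to 8, in capitals. A stretch of the *Igfbp4* 3′-UTR is shown with the letters complementary to that seed in capitals. Those capitals begin at base 1562 after the stop codon.
mmu-miR-17-5p: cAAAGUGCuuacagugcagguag
Igfbp4 3′-UTR: tgtcagcctGCACTTTgggacttgt
*Igfbp4* was the 1 member of 10 whose longest annotated 3′-UTR held the letters GCACTTT, in the sense direction. They occurred in 12.2% of the longest 3′-UTRs of 21186 genes and in 23.2% of those within 20% of the length of the *Igfbp4* 3′-UTR. A match is a run of letters and not a measured site.

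Because many members moved with disease, their RefSeq promoters (GRCm38.p6, 250 bases before to 50 bases after the start of each gene) were searched on both strands for short motifs. The letters CAAAACA are the core of the insulin response element, for which *Igfbp1* is a textbook example. The letters ACGTG are the core of the hypoxia response element. The letters TATANA stand for a TATA-type box, and a stretch such as that of *Igfbp3* can match on both strands. All 10 members had at least 1 promoter in the table. The windows below read along the strand of the gene, with the motif in capitals.
Igfbp1, chr11:7197668-7197697, plus strand: gagctcacaagCAAAACAaacttattttga
Igfbp2, chr1:72824327-72824356, plus strand: gtgtgcacaagcACGTGccctcacgcaaga
Igfbp7, chr5:77408203-77408232, minus strand: cacgcatggtggACGTGggacgagctctcc
Igfbp3, chr11:7213936-7213965, minus strand: caccccggcttcTATATAtcggcctgcgcg
Igfbp4, chr11:99041204-99041233, plus strand: ccagggggccggTATAAAgtcccgggagcc
CAAAACA occurred in 6.28% of 32851 promoters, ACGTG in 19.6% and TATANA in 24.7%. Matches whose windows are not shown were those of ACGTG in an *Igf2* promoter and of TATANA in the *Igfbp6* promoter, and second matches on the other strand that overlap the windows of *Igfbp2* and *Igfbp3*. No promoter of *Igfbp5*, *Igf1* or *Igf1r* held any of these letters. The match of *Igfbp1* began 108 bases before its start, and the boxes of *Igfbp3* and *Igfbp4* lay 30 and 28 bases before theirs.

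Total counts ran from 18800307 to 24453033 per mouse, and the members together took 0.296% to 0.457% of them. Levels are given as CPM, counts scaled to library size, here after TMM scaling, an adjustment for differences in composition between libraries. *Pkd2*, the edited gene, was measured at 217, 194 and 219 CPM in the noncystic *Pkd2* +/+ mice and at 277, 286 and 271 CPM in the noncystic *Pkd2* Δ17/Δ17 mice. It was measured at 232, 233 and 213 CPM in the cystic *Pkd2* +/+ mice and at 337, 336 and 307 CPM in the cystic *Pkd2* Δ17/Δ17 mice, so both deletion groups lay above their controls without overlap. Kidney markers were present in every mouse, with the summed level of 10 proximal tubule markers between 6007 and 18630 CPM. The summed level of 7 adrenal gland markers was at most 7.68 CPM in 10 mice but 62.8 CPM in 1 cystic *Pkd2* +/+ mouse (mouse 27) and 433 CPM in 1 cystic *Pkd2* Δ17/Δ17 mouse (mouse 30). Member results whose call was lost or gained, or whose called value moved by more than 1.5 times, without these mice are given with and without them, and their part in the results was not otherwise tested.

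Cystic and noncystic *Pkd2* +/+ kidneys were compared to see how the IGF system stood in polycystic disease. *Igf1* and *Igf1r* were both lower in the cystic kidneys, as were *Igfbp1*, *Igfbp3*, *Igfbp4*, *Igfbp5* and *Igfbp7*, while *Igfbp2* was higher. The fitted changes ran from 2.61-fold lower for *Igfbp5* to 2.92-fold higher for *Igfbp2*. In all, 8 of 10 members passed an adjusted p of 0.05 (edgeR quasi-likelihood test, Benjamini-Hochberg over all genes tested), 1 higher and 7 lower, against 31.1% of all genes, 16.9% higher and 14.2% lower. The groups did not overlap for 8 of 10 members, against 41.7% of all genes. The median log2 fold change of the members was -0.68, beside 0.02 over all genes tested. This median and those of the members below include the fitted value of *Igf2*, which had few counts.

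The same comparison in *Pkd2* Δ17/Δ17 kidneys called 5 of 10 members, all lower, namely *Igf1r*, *Igfbp1*, *Igfbp3*, *Igfbp4* and *Igfbp6*. Across all genes 23% were called there, 12.8% higher and 10.2% lower. The groups did not overlap for those 5 members and for *Igfbp2*, that is 6 of 10, against 37.9% of all genes. The median log2 fold change of the members was -0.44, beside -0.00 over all genes tested.

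**Figure D1:**
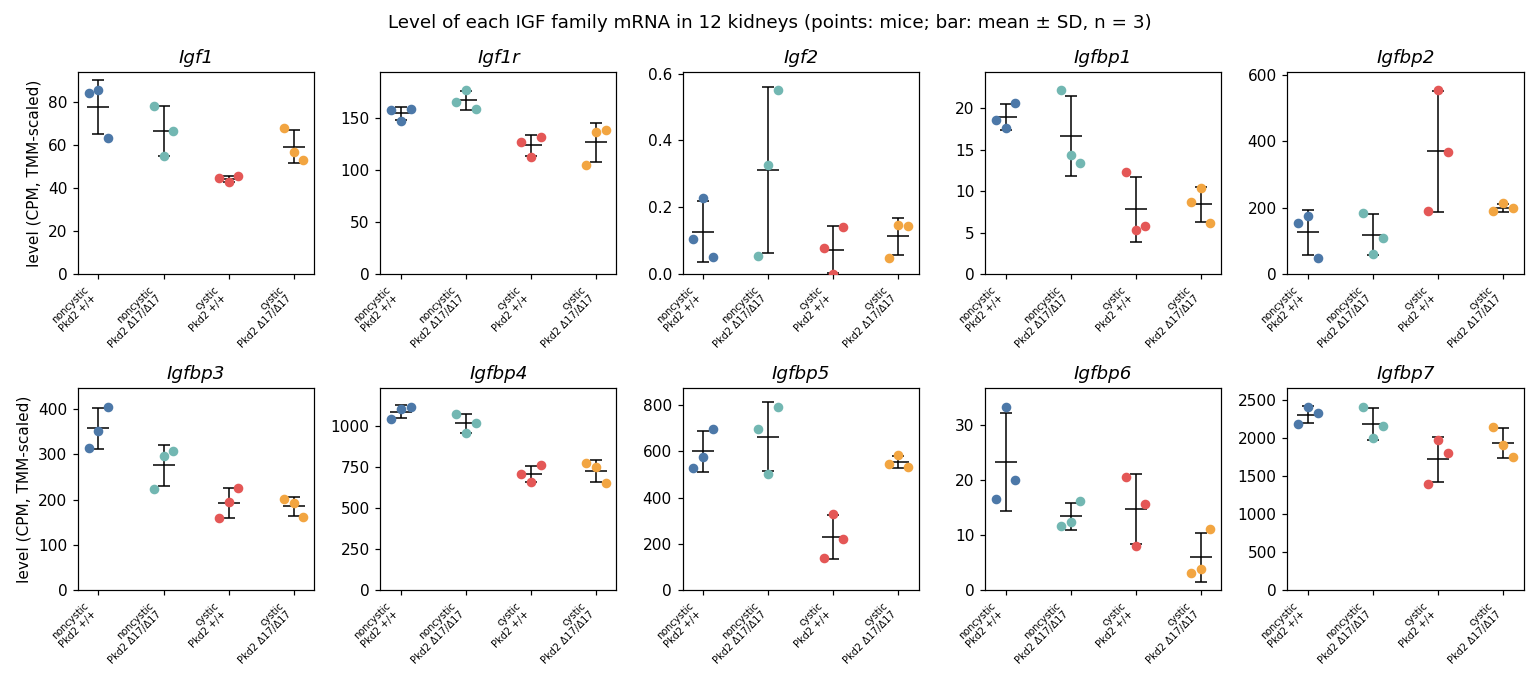
Level of each of the 10 members (CPM, linear axis from 0, 1 panel per gene) in each of the 12 mice, by group, with points for mice and bars for the mean and SD of 3 mice. Igfbp5 was at 141 to 330.0 CPM in the cystic Pkd2 +/+ mice and at 501 to 794 CPM in the other 9 mice. Igfbp4 separated the 6 cystic from the 6 noncystic mice, as did Igf1r, Igfbp1 and Igfbp2 by narrower margins.

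Of the ligands, *Igf1* was well measured and *Igf2* was close to the limit of detection. *Igf1* was at 83.9, 85.3 and 63.2 CPM in the noncystic *Pkd2* +/+ mice and at 44.6, 42.7 and 45.5 CPM in the cystic *Pkd2* +/+ mice. Every cystic *Pkd2* +/+ mouse lay below every other mouse of the study, with means of 77.5 ± 12.4 and 44.3 ± 1.41 CPM (SD, n = 3). The log2 fold change was -0.81 ± 0.13 (SE, edgeR adjusted p = 0.000142), a 1.75-fold lower level. With the *Pkd2* motif deleted, *Igf1* was at 78.1, 54.9 and 66.2 CPM without cysts and at 68.0, 56.5 and 53.1 CPM with cysts. These groups overlapped, and the log2 fold change of -0.17 ± 0.13 (SE) did not pass the test (edgeR adjusted p = 0.422).

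*Igf2*, the fetal growth factor that is silenced after birth in most mouse tissues, had 0 to 10 counts per mouse. The counts were 2, 4 and 1 in the noncystic *Pkd2* +/+ mice, 1, 6 and 10 in the noncystic *Pkd2* Δ17/Δ17 mice, 2, 0 and 3 in the cystic *Pkd2* +/+ mice and 1, 3 and 3 in the cystic *Pkd2* Δ17/Δ17 mice. The groups overlapped in every comparison, *Igf2* passed no test, and no fold change is given at this depth. The cystic *Pkd2* +/+ mouse with 0 counts allows a level of up to 0.147 CPM (3 counts, counting error only), and exons of *Igf2* overlap other annotated transcripts.

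*Igf1r*, which encodes the signaling receptor of both ligands, was lower in cystic kidneys of both *Pkd2* genotypes. In *Pkd2* +/+ mice it was at 157, 147 and 158 CPM without cysts and at 126, 112 and 132 CPM with cysts. In *Pkd2* Δ17/Δ17 mice it was at 165, 176 and 159 CPM without cysts and at 105, 136 and 139 CPM with cysts, so that all 6 cystic mice lay below all 6 noncystic mice. *Igf1r* differed by a log2 fold change of -0.32 ± 0.10 (SE, edgeR adjusted p = 0.0198) in the wild type and -0.40 ± 0.10 (SE, edgeR adjusted p = 0.00685) with the motif deleted. Scaling by library totals, which moved the median gene up by 0.16 and 0.15 on the log2 scale in these comparisons, ended both calls (edgeR adjusted p = 0.257 and 0.0903). The wild type call was also lost without mouse 19 (adjusted p = 0.0618) or mouse 26 (adjusted p = 0.0879), and its alternatives ranged from 0.00278 to 0.257. Ranges over alternatives, here and below, include an edgeR fit with no cutoff on low counts, in which the spread of each gene did not enter its test. That fit gave the lowest value here.

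Among the binding proteins, the neighbours *Igfbp2* and *Igfbp5* went in opposite directions in the cystic *Pkd2* +/+ kidneys. *Igfbp5*, a matrix-associated binding protein, was at 527, 576 and 697 CPM in noncystic and at 141, 330.0 and 220.0 CPM in cystic *Pkd2* +/+ mice. The highest cystic mouse lay well under the lowest noncystic mouse, with means of 230.3 ± 95.02 against 600.1 ± 87.7 CPM (SD, n = 3). This was a log2 fold change of -1.38 ± 0.22 (SE, edgeR adjusted p = 0.000135). In *Pkd2* Δ17/Δ17 mice, *Igfbp5* was at 698, 501 and 794 CPM without cysts and at 545, 584 and 532 CPM with cysts. The cystic values lay inside the noncystic range, and the log2 fold change of -0.26 ± 0.22 (SE) did not pass the test (edgeR adjusted p = 0.456).

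*Igfbp2*, a binding protein abundant in fetal tissue and plasma, was at 155, 177 and 49.5 CPM in noncystic and at 189, 554 and 367 CPM in cystic *Pkd2* +/+ mice. The groups did not overlap, but the lowest cystic value lay close to the highest noncystic value and the spread within both groups was wide, with means of 126.9 ± 67.9 and 370.2 ± 183 CPM (SD, n = 3). *Igfbp2* differed by a log2 fold change of 1.54 ± 0.42 (SE, edgeR adjusted p = 0.00961), and it was 1.13 and no longer called without mouse 26 (adjusted p = 0.0551). The range over alternatives was 1.71e-56, in the fit with no cutoff, to 0.0551. *Igfbp2* in *Pkd2* Δ17/Δ17 mice was at 186, 61.7 and 111 CPM without cysts and at 189, 214 and 198 CPM with cysts. All cystic values were above the noncystic values, the highest noncystic mouse by a narrow margin, and the log2 fold change of 0.75 ± 0.42 (SE) did not pass the test (edgeR adjusted p = 0.235).

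The ratio of *Igfbp5* to *Igfbp2* CPM within each mouse was 0.745, 0.595 and 0.599 in the cystic *Pkd2* +/+ mice. In the other 9 mice it ran from 2.68 to 14.1, with 2.88, 2.73 and 2.68 in the cystic *Pkd2* Δ17/Δ17 mice. The cystic *Pkd2* +/+ mice thus stood apart from the rest, and the cystic *Pkd2* Δ17/Δ17 mice lay just under the lowest noncystic mouse, at 3.26. The ratio is not corrected for gene length, so it compares mice and says nothing of which gene is the more abundant. It combines the values already described and is given without a test.

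**Figure D2:**
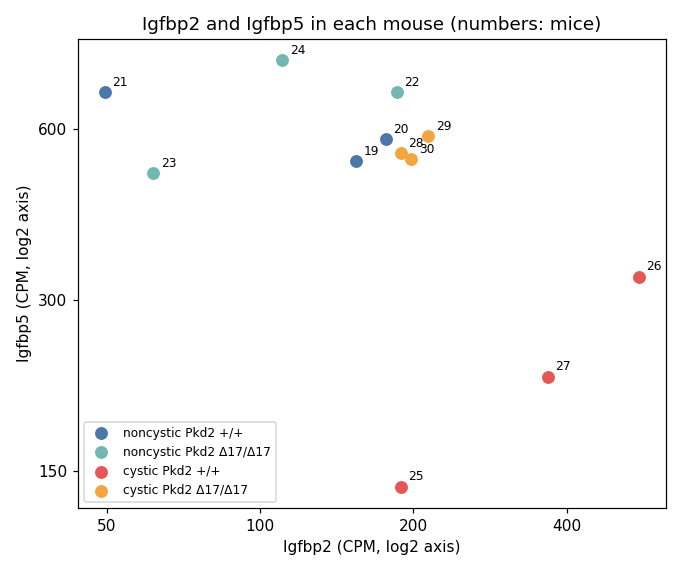
Igfbp5 against Igfbp2 (CPM, both axes logarithmic), 1 point per mouse, marked by group. The 3 cystic Pkd2 +/+ mice lie apart at low Igfbp5, with Igfbp2 at 189 to 554 CPM, and the 3 cystic Pkd2 Δ17/Δ17 mice lie at Igfbp5 levels of 532 to 584 CPM, within the noncystic range.

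*Igfbp3*, which carries most circulating IGF in a complex with the acid-labile subunit, was at 314, 352 and 405 CPM in noncystic and at 160.0, 195 and 226 CPM in cystic *Pkd2* +/+ mice. In *Pkd2* Δ17/Δ17 mice it was at 224, 296 and 307 CPM without cysts and at 202, 193 and 161 CPM with cysts. Neither pair of groups overlapped. *Igfbp3* thus differed by a log2 fold change of -0.88 ± 0.14 (SE, edgeR adjusted p = 0.000111) in the wild type and -0.57 ± 0.14 (SE, edgeR adjusted p = 0.00633) with the motif deleted.

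*Igfbp4*, which mostly inhibits IGF action and is the main substrate of pappalysin, had the smallest standard errors of the members. It was at 1044, 1101 and 1119 CPM in noncystic and at 707, 659 and 759.9 CPM in cystic *Pkd2* +/+ mice. The *Pkd2* Δ17/Δ17 mice had 1075, 956 and 1016 CPM without cysts and 776, 751 and 651 CPM with cysts, so the lowest noncystic mouse was above the highest cystic mouse over all groups. The log2 fold change was -0.62 ± 0.09 (SE, edgeR adjusted p = 5.85e-05) in the wild type and -0.48 ± 0.09 (SE, edgeR adjusted p = 0.000872) with the motif deleted.

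*Igfbp7*, which binds IGFs weakly, was at 2191, 2406 and 2329 CPM in noncystic and at 1397, 1971 and 1802 CPM in cystic *Pkd2* +/+ mice. These groups did not overlap, and the log2 fold change was -0.42 ± 0.12 (SE, edgeR adjusted p = 0.0148). The call was lost when libraries were scaled by their totals (edgeR adjusted p = 0.0849, limma-trend adjusted p = 0.0882) and without mouse 25 (adjusted p = 0.0635), with a range over alternatives of 0.000667 to 0.0882. In the *Pkd2* Δ17/Δ17 mice, *Igfbp7* was at 2417, 1998 and 2163 CPM without cysts and at 2152, 1908 and 1759 CPM with cysts. Those groups overlapped, with a log2 fold change of -0.18 ± 0.12 (SE, edgeR adjusted p = 0.358). *Igfbp7* shares 85 exonic bases with genes on the other strand, and the strand used in counting is not given in the sources used here.

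*Igfbp1*, a liver-type binding protein that insulin represses, was among the low members. It was at 18.6, 17.6 and 20.7 CPM in noncystic and at 12.3, 5.39 and 5.79 CPM in cystic *Pkd2* +/+ mice, with no overlap and a log2 fold change of -1.26 ± 0.27 (SE, edgeR adjusted p = 0.00176). With the motif deleted it was at 22.2, 14.3 and 13.4 CPM without cysts and at 8.65, 10.4 and 6.21 CPM with cysts. Those groups did not overlap either, and the log2 fold change was -0.98 ± 0.27 (SE, edgeR adjusted p = 0.0147). That second call was lost without mouse 22 (adjusted p = 0.0858), without mouse 30 (0.0736) and without mice 27 and 30 together (0.0661), over a range of alternatives from 7.31e-09 to 0.0858.

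*Igfbp6*, which prefers IGF2 over IGF1, was the least certain of the binding proteins. It was at 16.5, 33.4 and 19.99 CPM in noncystic and at 20.6, 8.03 and 15.7 CPM in cystic *Pkd2* +/+ mice, which overlapped, and the log2 fold change of -0.65 ± 0.38 (SE) did not pass the test (edgeR adjusted p = 0.230). With the motif deleted it was at 11.7, 12.3 and 16.3 CPM without cysts and at 3.08, 3.81 and 11.1 CPM with cysts. These groups were separated by a small gap, with a log2 fold change of -1.16 ± 0.41 (SE, edgeR adjusted p = 0.0498). This call was lost in DESeq2 (adjusted p = 0.0757), with library totals (0.0852), with only the groups compared (0.0533) and without mouse 22, 23, 24, 28 or 29, over a range from 2.76e-12 to 0.186. Without mouse 30, which had the highest *Igfbp6* level of its group, the log2 fold change was -1.96 (adjusted p = 0.00134), and without mice 27 and 30 together it was also -1.96 (adjusted p = 0.00232). The mouse with the highest *Igfbp6* level, a noncystic *Pkd2* +/+ mouse, also had the highest summed level of 6 fat tissue markers, 1236 CPM beside 141 to 711 CPM in the other 11 mice, and the part of fat tissue in its level was not tested.

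**Figure D3:**
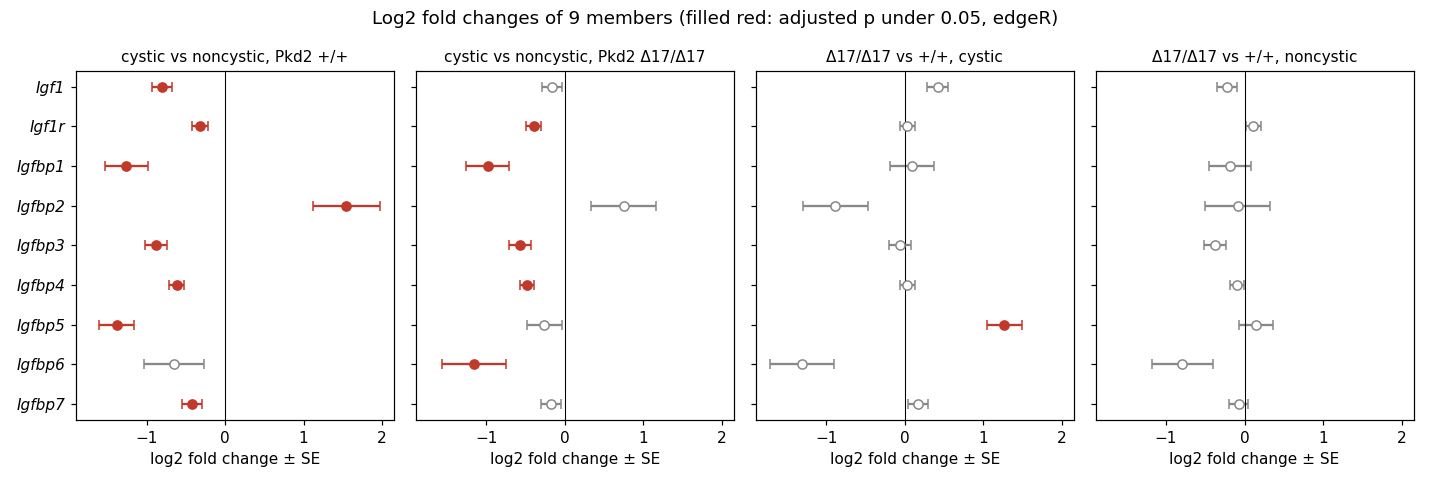
Fitted log2 fold change of the members other than Igf2 with its standard error (edgeR, horizontal axis on the log2 scale) in the 2 disease comparisons and the 2 deletion comparisons, with filled points for an adjusted p under 0.05. In the disease comparison of Pkd2 +/+ mice, Igfbp2 stands at 1.54 and Igfbp5 at -1.38, and Igfbp5 is the 1 member called for the deletion in cystic kidneys, at 1.27.

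The 2 disease comparisons were set against each other by their difference, which equals the difference between the effects of the deletion with and without cysts. No member passed this test with edgeR, limma-trend or DESeq2, and 2 of 10 had an unadjusted p under 0.05, *Igf1* and *Igfbp5*. The percentage of all genes called was 0.0122%, and before adjustment 2053 of 24642 genes fell below the same threshold. The difference was 0.64 ± 0.19 on the log2 scale for *Igf1* (SE, edgeR adjusted p = 0.317) and 1.12 ± 0.31 for *Igfbp5* (SE, edgeR adjusted p = 0.295). Without mouse 26 the difference for *Igfbp5* was 1.47 and was called (adjusted p = 0.0225), over a range of alternatives from 1.92e-12 to 0.591. *Igf1*, *Igfbp2*, *Igfbp5* and *Igfbp7* were called only in *Pkd2* +/+ mice, and *Igfbp6* only with the motif deleted. None of these calls in 1 genotype is therefore shown to be a difference between genotypes.

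Deleting the miR-17 motif of *Pkd2* in cystic kidneys was accompanied by a higher level of 1 member, *Igfbp5*, and by no other call. The 545, 584 and 532 CPM of the cystic *Pkd2* Δ17/Δ17 mice lay above the 141, 330.0 and 220.0 CPM of the cystic *Pkd2* +/+ mice without overlap, with means of 553 ± 27.2 and 230.3 ± 95.02 CPM (SD, n = 3). The log2 fold change was 1.27 ± 0.22 (SE, edgeR adjusted p = 0.00846), or 2.41-fold, and *Pkd2* itself was higher by 0.53 ± 0.08 (SE, edgeR adjusted p = 0.00250). Over all genes, 2.23% were called in this comparison, 1.19% higher and 1.04% lower. Without mouse 27 the *Igfbp5* difference was 1.23 and was not called (adjusted p = 0.0525), and without mice 27 and 30 together it was 1.26 and called (adjusted p = 0.0480). The range of alternatives for *Igfbp5* was 2.67e-33, in the fit with no cutoff on low counts, to 0.0525.

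*Igf1* was the other member whose cystic groups did not overlap, which made 2 of 10 members against 19% of all genes. It was at 68.0, 56.5 and 53.1 CPM with the deletion and at 44.6, 42.7 and 45.5 CPM without it, a log2 fold change of 0.42 ± 0.13 (SE) that did not pass the test (edgeR adjusted p = 0.120). *Igfbp6* differed by -1.31 ± 0.40 (SE, edgeR adjusted p = 0.113) and *Igfbp2* by -0.88 ± 0.42 (SE, edgeR adjusted p = 0.344), both short of the threshold. The *Igfbp6* difference was called without mouse 26 (-1.60, adjusted p = 0.0469), without mouse 30 (-2.11, adjusted p = 0.00580) and without mice 27 and 30 together (-2.06, adjusted p = 0.0223), over a range from 8.8e-15 to 0.401. The other 5 members with a fitted change lay between -0.06 for *Igfbp3* and 0.17 for *Igfbp7*. The median over the 10 members was 0.06, beside 0.00 over all genes.

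In noncystic kidneys the deletion called no member with edgeR, limma-trend or DESeq2, and 1 of 10, *Igfbp3*, had an unadjusted p under 0.05. Of all genes 0.00406% were called, and before adjustment 1555 of 24642 fell below the same threshold. The groups did not overlap for 3 of 10 members, *Igf1r* (higher with the deletion), *Igfbp3* and *Igfbp6* (both lower), against 10.8% of all genes. The log2 fold change was -0.38 ± 0.14 for *Igfbp3* (SE, edgeR adjusted p = 0.771) and -0.79 ± 0.39 for *Igfbp6* (SE, edgeR adjusted p = 0.771). For *Igf1r* it was 0.11 (edgeR adjusted p = 0.848). For comparison, the edited gene *Pkd2* differed by 0.40 ± 0.08 (SE) and did not pass this test either (edgeR adjusted p = 0.771), although it was called by DESeq2 (adjusted p = 0.00151) and without a cutoff on low counts (adjusted p = 0.00898), over a range of alternatives from 0.00151 to 0.9996. The median over the members was -0.09, beside 0.01 over all genes.

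To rank the members by level, counts were divided by exon length and expressed as CPM per kilobase (CPM/kb). Exon length here is that of all annotated exons of a gene merged, which can exceed the length of the transcripts expressed. The order of members on this scale depends on that choice, and other lengths were not tested. On this scale *Igfbp7* was far above the rest in all groups, at 1909 ± 90.01 CPM/kb in noncystic and 1425 ± 244 CPM/kb in cystic *Pkd2* +/+ mice (SD, n = 3), and it made up 75.0% to 78.6% of the summed level of the 7 binding proteins as a mean over each group. *Igfbp4* came next in 3 of 4 groups, at 246 ± 8.85 and 160.5 ± 11.5 CPM/kb in these *Pkd2* +/+ groups (SD, n = 3), and in the cystic *Pkd2* +/+ mice its values lay inside the range of *Igfbp2*. *Igfbp2*, *Igfbp3* and *Igfbp5* could not be ordered over all mice because their ranges of 26.8 to 300.1, 51.1 to 129.5 and 23.4 to 132 CPM/kb overlapped. Over all mice, the ranges of *Igfbp1* and *Igfbp6* overlapped those of the ligand *Igf1* and the receptor. In noncystic *Pkd2* +/+ mice, however, both lay above *Igf1* and *Igf1r* without overlap. The means there were 20.94 ± 7.999 CPM/kb for *Igfbp6* and 12.4 ± 1.02 CPM/kb for *Igfbp1* (SD, n = 3). *Igf1r* was at 9.18 ± 0.386 CPM/kb and *Igf1* at 7.82 ± 1.25 CPM/kb in those mice (SD, n = 3). The share of *Igfbp2* in the summed binding-protein level was 2.78% ± 1.48 in noncystic and 10.1% ± 3.43 in cystic *Pkd2* +/+ mice (SD, n = 3). In *Pkd2* Δ17/Δ17 mice that share was 2.70% ± 1.18 without cysts and 5.36% ± 0.646 with cysts (SD, n = 3). The share of *Igfbp5* in the same 4 groups, in the same order, was 4.04% ± 0.550, 1.96% ± 0.483, 4.73% ± 0.862 and 4.54% ± 0.396 (SD, n = 3). The summed level itself was 2347 to 2585 CPM/kb in noncystic and 1519 to 2207 CPM/kb in cystic *Pkd2* +/+ mice, without overlap, while the ranges of the *Pkd2* Δ17/Δ17 groups, 2101 to 2556 and 1864 to 2221 CPM/kb, overlapped.

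**Figure D4:**
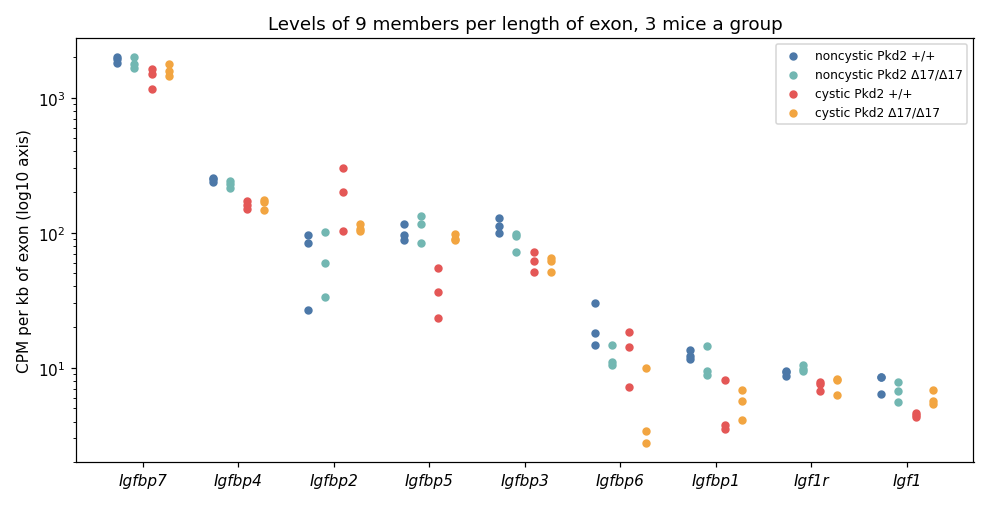
Level of the 9 members other than Igf2 per exon length (CPM/kb, logarithmic axis) by group, with points for single mice. Igfbp7 lies above the other members plotted in every group. Igfbp4 comes next in group mean in 3 groups and lies under Igfbp2 in the cystic Pkd2 +/+ mice, where Igfbp2 averages 200.4 CPM/kb. Igfbp1, Igfbp6, Igf1 and Igf1r have the lowest group means of the members plotted.

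The rest of the pathway was read from 5 lists with 32 genes, of which 31 were tested. In the disease comparison of *Pkd2* +/+ kidneys 11 rose, 8 fell and 12 did not pass, and with the motif deleted 8 rose, 8 fell and 15 did not pass, beside the percentages of all genes given above. In *Pkd2* +/+ kidneys, of the 8 proteases, inhibitors and partners of the binding proteins, 3 rose and 2 fell. *Pappa*, the pappalysin that cleaves IGFBP4, rose by 1.69 on the log2 scale (edgeR adjusted p = 1.09e-06), while *Stc1* and *Stc2*, stanniocalcins that inhibit pappalysins, rose by 2.08 and 0.61. *Igfals*, the acid-labile subunit that holds IGFBP3 complexes, changed by -1.39, and *Htra1*, a protease that also cuts binding proteins, by -0.48. With the motif deleted *Pappa* (1.28), *Stc1* (2.53), *Igfals* (-1.20) and *Htra1* (-0.66) were called in the same directions.

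Of the other 3 receptors, *Insr*, the insulin receptor, and *Insrr*, a related receptor that responds to alkaline pH, fell in *Pkd2* +/+ kidneys, with log2 fold changes of -0.43 and -1.15. With the motif deleted these were -0.76 and -1.26, and *Igf2r*, which takes up and degrades IGF2, was also called at -0.27. Of 12 adaptors and signal transducers tested, 5 rose and 3 fell in *Pkd2* +/+ kidneys. *Irs2*, an adaptor below both receptors, rose by 0.63, *Akt1*, a kinase of the growth signal, by 0.64, *Shc1*, the adaptor toward the RAS pathway, by 0.34, and *Grb10* and *Grb14*, adaptors that restrain the receptors, by 0.41 and 0.54. *Foxo1* and *Foxo3*, transcription factors that AKT holds inactive, changed by -0.52 and -0.46, and *Pik3ca*, the catalytic subunit of PI3 kinase, by -0.25. With the motif deleted, *Akt1* (0.70), *Shc1* (0.33), *Grb10* (0.44), *Grb14* (0.32), *Foxo1* (-0.29) and *Foxo3* (-0.47) were called. Of the 5 genes of growth hormone input, *Socs2*, an inhibitor of growth hormone signaling, rose by 1.26 and *Jak2*, the kinase of its receptor, by 0.36, while *Ghr*, the receptor itself, changed by -0.84, and with the motif deleted *Socs2* (0.77) and *Ghr* (-0.67) were called. *Igf2bp1*, an mRNA-binding protein of *Igf2* transcripts, was called at 0.59 and 0.62 in the comparisons. The deletion called no gene of these lists with edgeR in cystic or in noncystic kidneys. An unadjusted p under 0.05 was found for 7 and 1 of the 31 genes, against 3532 and 1555 of all 24642 genes. In cystic kidneys limma-trend and DESeq2 each called 1 gene, *Adam12*, a protease of binding proteins (adjusted p = 0.0498 and 0.0157).

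Some of the pathway calls did not hold in every alternative. In *Pkd2* +/+ kidneys, *Pik3ca* lost its call in 6 of 15 alternatives (adjusted p up to 0.404), with library totals in edgeR and limma-trend, without mouse 20, 25 or 27 and without mice 27 and 30 together, and its log2 fold change was then as small as -0.09. *Htra1* lost its call in the same 6 alternatives (adjusted p up to 0.100), with a value down to -0.31. *Insr* lost its call in 2, those with library totals (adjusted p up to 0.0798, value down to -0.28). *Jak2* lost its call in 3, without mouse 20, 21 or 26 (adjusted p up to 0.0934, value down to 0.23 without mouse 26), and *Igf2bp1* in 3, without mouse 21 or 27 or without mice 27 and 30 together (adjusted p up to 0.117). The value of *Foxo3* was down to -0.29 with library totals and stayed called. With the motif deleted, *Igf2r* lost its call in 6 of 15 alternatives, with library totals in edgeR and limma-trend, without mouse 24, 28 or 30 and without mice 27 and 30 together (adjusted p up to 0.275, value down to -0.12). *Foxo1* lost its call in 5, the same except mouse 28 (adjusted p up to 0.248, value down to -0.14). *Grb14* lost its call in 6, without mouse 22, 23, 24, 29 or 30 or without mice 27 and 30 together (adjusted p up to 0.125), and *Igf2bp1* in 4, without mouse 22, 29 or 30 or without mice 27 and 30 together (adjusted p up to 0.0985). The other pathway calls held in all 15 alternatives.

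Cell type markers moved with disease beside the members. In *Pkd2* +/+ kidneys all 10 proximal tubule markers fell and all 8 macrophage markers rose, and so they did with the motif deleted. The summed level of 8 endothelial markers, a cell type in which *Igfbp3* and *Igfbp7* are known to be expressed, was 1141 to 1288 CPM in noncystic and 724 to 898 CPM in cystic *Pkd2* +/+ mice, with 5 of 8 markers called lower, and 1138 to 1191 and 854 to 1068 CPM with the motif deleted, with 3 of 8 called lower. The summed level of 9 fibroblast and mural markers was 2002 to 2183 CPM in noncystic and 3052 to 4748 CPM in cystic *Pkd2* +/+ mice, with 5 of 9 higher and 2 lower. Of 6 podocyte markers 5 fell and 1 rose, of 8 markers of the thick ascending limb and distal tubule 6 fell and 1 rose, of 8 collecting duct markers 2 rose and 3 fell, and of 6 fat tissue markers 5 fell and 1 rose. No adrenal marker of 7 was called in the wild type comparison, and 5 were called higher with the motif deleted. For the deletion in cystic kidneys, the comparison in which *Igfbp5* rose, 4 of 8 macrophage markers fell, 3 of 10 proximal tubule and 2 of 8 thick ascending limb and distal tubule markers rose, 1 of 8 collecting duct markers fell, and no marker of endothelium, fibroblast and mural cells, podocytes, fat or adrenal gland was called. No list had a marker at 0 in all mice of a group except the adrenal list, with 3 of 7 at 0 in the noncystic *Pkd2* +/+ mice. The part of these cell types in the members' levels was not tested.

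The genes that followed each member most closely were found by Pearson's r of log2 CPM over the 12 mice among 13848 genes. These correlations share the differences between the 4 groups and are a description. *Igfbp5* was followed by *Atp2a3* (r = 0.98), *Tnn* (0.97) and *2610035D17Rik* (0.97), and *Igfbp4* by *Slc25a39*, *Cyba* and *Qdpr* (0.99 each). The closest gene to *Igfbp7* was *Plvap* (0.97), a protein of endothelial diaphragms, ahead of *Mylk3* (0.96) and *Yipf4* (0.96), and the closest to *Igfbp3* was *Flt1* (0.95), an endothelial receptor of VEGF, ahead of *Npc2* (0.94) and *Txnrd2* (0.93). *Igfbp1* was followed by *Atp6ap2*, *Car9* and *Cltrn* (0.96, 0.96 and 0.95), *Igfbp2* by *Nudt21*, *Snrpg* and *Hmgb1* (0.94, 0.93 and 0.93) and *Igfbp6* by *Wnt2b*, *Cfap410* and *Slc50a1* (0.93, 0.89 and 0.88). *Igf1* was followed by *Cisd2*, *Gcat* and *Gcsh* (0.97, 0.96 and 0.95), of which the latter pair encode enzymes of mitochondrial glycine metabolism, and *Igf1r* by *1110019B22Rik*, *Atxn1* and *Skiv2l* (0.98, 0.96 and 0.95). Among the members themselves, the highest r was 0.89 between *Igfbp1* and *Igfbp4* and the lowest was -0.69 between *Igfbp1* and *Igfbp2*. The neighbours *Igfbp1* and *Igfbp3* had r = 0.66, and the neighbours *Igfbp2* and *Igfbp5* had r = -0.48.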

How the data were processed

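RNA from whole right kidneys of 12 mice, 3 in each of 4 groups given by the labels, was sequenced. The authors trimmed reads with Trim Galore (0.6.3), aligned them to GRCm38 with STAR (2.5.3a) and deposited raw counts per gene on Ensembl 94 models. The strand setting is not given in the sources used here. Total counts were 18800307 to 24453033 per mouse, and the median SE of a log2 fold change was 0.112 for genes with an average log2 CPM of at least 1.

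Counts were tested in R (4.3.3) with the quasi-likelihood test of edgeR (4.0.16), TMM factors, 1 mean per group, 8 residual degrees of freedom and an average log2 CPM of at least -3. P-values were two-sided and Benjamini-Hochberg adjusted over 24642 genes, with a threshold of 0.05. The SE is the log2 fold change divided by the square root of the F statistic. limma-trend (3.58.1, the method of the study), DESeq2 (1.42.0), other scalings, other filters on low counts, fits without the other groups or with the level of *Xist* as a covariate, and leaving out each mouse were alternatives. The 3 kinds of fit were tested on simulated data.

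All 10 members were tested in every comparison, and all are named for the disease comparisons. Genes of the 5 pathway lists were named where they were called. The 3 closest genes were named for each member with an average log2 CPM of at least 1. The members and lists were chosen with earlier results of these data known. Gene positions and exon lengths came from GENCODE M21 (GRCm38), which holds 54409 of the 54532 gene IDs. Of the rows, 343 had no symbol and held 0.0225% of counts. Promoters on chromosome 18 were left out of the shares of promoters with a motif.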

Additional observations from a re-analysis of the deposited data

How the results depend on the processing

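Apart from *Igf2*, for which no fold change is given, no member changed direction under any other scaling, test or filter. No paired analysis was possible because the groups share no replicate numbers in the labels. Of 10 members, the number called for disease in *Pkd2* +/+ mice was 8, but 6 with limma-trend and with library totals in edgeR. It was 9 with no cutoff on low counts and 6 (without mouse 26) to 8 when 1 mouse was left out. For disease with the *Pkd2* motif deleted it was 5, but 3 with library totals in edgeR, 4 with limma-trend and 7 with no cutoff. When 1 mouse was left out it was 3 (without mouse 22) to 4. For the deletion in cystic kidneys it was 1, but 4 with no cutoff on low counts, 2 without mice 27 and 30 (chosen after seeing the data) and 0 (without mouse 27) to 2 (without mouse 26 or 30) when 1 mouse was left out. For the deletion in noncystic kidneys it was 0, but 2 with no cutoff. For the difference between deletion effects it was 0, but 3 with no cutoff and 0 to 1 (without mouse 26) when 1 mouse was left out. Without a cutoff, the prior degrees of freedom of edgeR became infinite, against 8.12, so that the spread of each gene no longer entered its test.

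Over all genes, the deletion in cystic kidneys called 549, against 1128 with DESeq2, 1639 with no cutoff, 167 with only the groups compared, 322 without mice 27 and 30, and 118 to 861 when 1 mouse was left out (861 without mouse 25, 130 without 27, 127 without 28, 118 without 29). In noncystic kidneys it called 1, against 3 with DESeq2, 124 with no cutoff, 2 with only the groups compared and 0 to 2 when 1 mouse was left out. The difference between deletion effects called 3, against 9 with limma-trend, 134 with DESeq2, 8 with library totals, 566 with no cutoff, 12 with at least 10 counts in every mouse, 13 with *Xist* as a covariate, 20 without mice 27 and 30, and 0 to 61 when 1 mouse was left out (61 without mouse 25, 48 without 26, 57 without 30, and at most 10 without any other mouse). The cause of these differences was not tested.

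Values that changed sign were uncalled, and those of *Igfbp1* and *Igfbp2* moved widely with the mouse left out. When 1 mouse was left out, the deletion in cystic kidneys gave log2 fold changes of -0.038 to 0.15 for *Igf1r*, -0.12 to 0.59 for *Igfbp1*, -0.016 to 0.11 for *Igfbp4* and -0.18 to 0.064 for *Igfbp3*, which was 0.15 without mice 27 and 30. In noncystic kidneys the range was -0.57 to 0.23 for *Igfbp2* and -0.0011 to 0.31 for *Igfbp5*, and the difference between deletion effects was -0.15 to 0.041 for *Igf1r*. With *Xist* as a covariate no call of a member changed.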
